A study of Mus musculus with 10 samples.

Results

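The 10 genes described here, Cd34, Kit, Ly6a, Cd48, Gata2, Runx1, Meis1, Myb, Myc and Sox4, are widely used to mark or known to control haematopoietic stem and early progenitor cells. They were taken by name, and all 10 were found among the 17603 genes of the tables. Messenger RNA had been sequenced from sorted cells of female C3H/HeN mice, an inbred strain, of wild-type genotype, that carried tumors grown from injected SCC7 cells, a mouse squamous carcinoma line used by the labels as a model of head and neck squamous cell carcinoma (HNSCC). The sorted cells, labelled EPC without the abbreviation being spelled out, formed 3 groups: 4 libraries of CD45+ cells from the tumor, 3 of CD45+ cells from the spleen and 3 of CD45- cells from the spleen. CD45, the product of Ptprc, is the surface phosphatase of white blood cells. All mice bore tumors, so no group came from a tumor-free animal. The labels do not say whether replicates of a group are separate mice, and the p-values therefore speak only of the spread among these libraries, part or all of which may be technical.

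Blood cells arise from stem cells that renew themselves and give rise to progenitors committed to the erythroid, myeloid or lymphoid lineages. Along this path cells exchange surface proteins such as CD34, the receptor KIT and Sca-1 (encoded by Ly6a) for those of the mature lineages. Transcription factors such as GATA2, MEIS1 and MYB hold the immature programme and are later replaced. The adult mouse spleen can make red cells and myeloid cells when demand is high. None of the 10 genes is confined to stem cells in the mouse: mature mast cells express Kit and Gata2, activated lymphocytes and endothelium express Ly6a, most mature white blood cells carry CD48, and endothelium, some stromal cells and mast cells express Cd34.

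Runx1 and Gata2 have start sites far apart on the genome, and the groups differed in which of them their reads were assigned to (values below the gene levels). The 4 stretches here are the 250 bases before each RefSeq start on build GRCm38.p6, the C57BL/6J reference and not the C3H/HeN genome, each written 5′ to 3′ on the gene's strand. Capitals mark every match, on either strand, to the GATA motif spelled GATAA, the RUNX motif spelled TGTGGT, the E-box spelled CANNTG with N for any base, the ETS core spelled GGAAG, or the CCAAT box.
Runx1 distal start, chr16:92826075-92826324, minus strand: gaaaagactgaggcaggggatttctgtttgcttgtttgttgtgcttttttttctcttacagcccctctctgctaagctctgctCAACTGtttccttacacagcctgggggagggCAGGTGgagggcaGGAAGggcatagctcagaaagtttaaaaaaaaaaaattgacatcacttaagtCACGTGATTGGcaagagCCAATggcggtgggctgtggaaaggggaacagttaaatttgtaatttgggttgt
Runx1 proximal start, chr16:92697330-92697579, minus strand: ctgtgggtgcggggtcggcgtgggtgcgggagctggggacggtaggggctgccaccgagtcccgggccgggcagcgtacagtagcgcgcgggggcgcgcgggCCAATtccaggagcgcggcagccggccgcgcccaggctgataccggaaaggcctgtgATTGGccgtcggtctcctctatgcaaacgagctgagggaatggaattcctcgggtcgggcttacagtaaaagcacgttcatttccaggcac
Gata2 distal start, chr6:88193641-88193890, plus strand: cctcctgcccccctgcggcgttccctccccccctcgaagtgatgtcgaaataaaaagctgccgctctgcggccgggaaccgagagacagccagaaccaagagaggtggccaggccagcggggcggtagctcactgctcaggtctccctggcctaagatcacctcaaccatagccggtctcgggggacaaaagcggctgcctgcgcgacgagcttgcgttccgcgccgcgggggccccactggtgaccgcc
Gata2 proximal start, chr6:88198414-88198663, plus strand: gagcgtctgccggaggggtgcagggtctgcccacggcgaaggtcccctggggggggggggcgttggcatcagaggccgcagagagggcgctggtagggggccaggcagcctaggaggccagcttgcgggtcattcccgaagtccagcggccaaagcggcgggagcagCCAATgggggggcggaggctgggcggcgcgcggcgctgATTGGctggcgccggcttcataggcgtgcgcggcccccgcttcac
The GC content was 45.6% before the distal and 67.6% before the proximal start of Runx1, and 67.2% and 74% before the distal and proximal starts of Gata2. The distal Runx1 stretch held 3 E-boxes, 1 ETS match and 2 CCAAT boxes, 1 of which abuts an E-box so that their capitals run together. The proximal Runx1 and the proximal Gata2 stretches held 2 CCAAT boxes each and no other match, and the distal Gata2 stretch held none of the 5 motifs. Over the same 250 bases of 32851 RefSeq promoters, 22.6% held a GATA match, 14.05% a RUNX match, 66.2% an E-box, 64.1% an ETS match and 33.8% a CCAAT box, so each of the motifs found is a common one.

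Values are FPKM, fragment numbers divided by the size of the library and the length of the transcript, with all transcript models of a gene summed. The FPKM worth of 1 fragment of a transcript of 1 kilobase was estimated at 0.0496 to 0.0565. It was the median of the length-scaled values of short single-model genes that lay between 0.03 and 0.075. That fixed range bounds the result, so the implied library sizes of about 17700000 to 20200000 fragments, and all fragment numbers below, are rough. Replicates correlated over all genes with Pearson's r of 0.982 to 0.999 in tumor CD45+, 0.887 to 0.977 in splenic CD45+ and 0.993 to 0.994 in splenic CD45- libraries. Erythroid genes were low in the tumor libraries beside the splenic ones. The erythroid regulator Klf1 stood at 0.09 to 0.45 FPKM in the tumor. It had 271 to 613 FPKM in splenic CD45+ and 704 to 788 FPKM in splenic CD45- libraries. Ptprc followed the gate, at 59.4 to 92.5 FPKM in the tumor, 39.2 to 265 FPKM in splenic CD45+ and 1.63 to 2.57 FPKM in splenic CD45- libraries. Splenic CD45+ replicate 2 stood apart: it was the lowest of its 3 libraries for 10 of 10 members, while over 11541 expressed genes it was the lowest for 43.0% and the highest for 42.8%, and replicate 3 the lowest for 38.3%. Tumor replicate 1 stood apart as well, as the lowest of its 4 libraries for 6 of the members and for 56.8% of those genes (and the highest for 25.5%), with globin genes at 10.4% of its summed FPKM against 1.80% to 1.87% in the other tumor libraries. For some of the results that rest on either library, values without it are given as well.

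**Figure D1:**
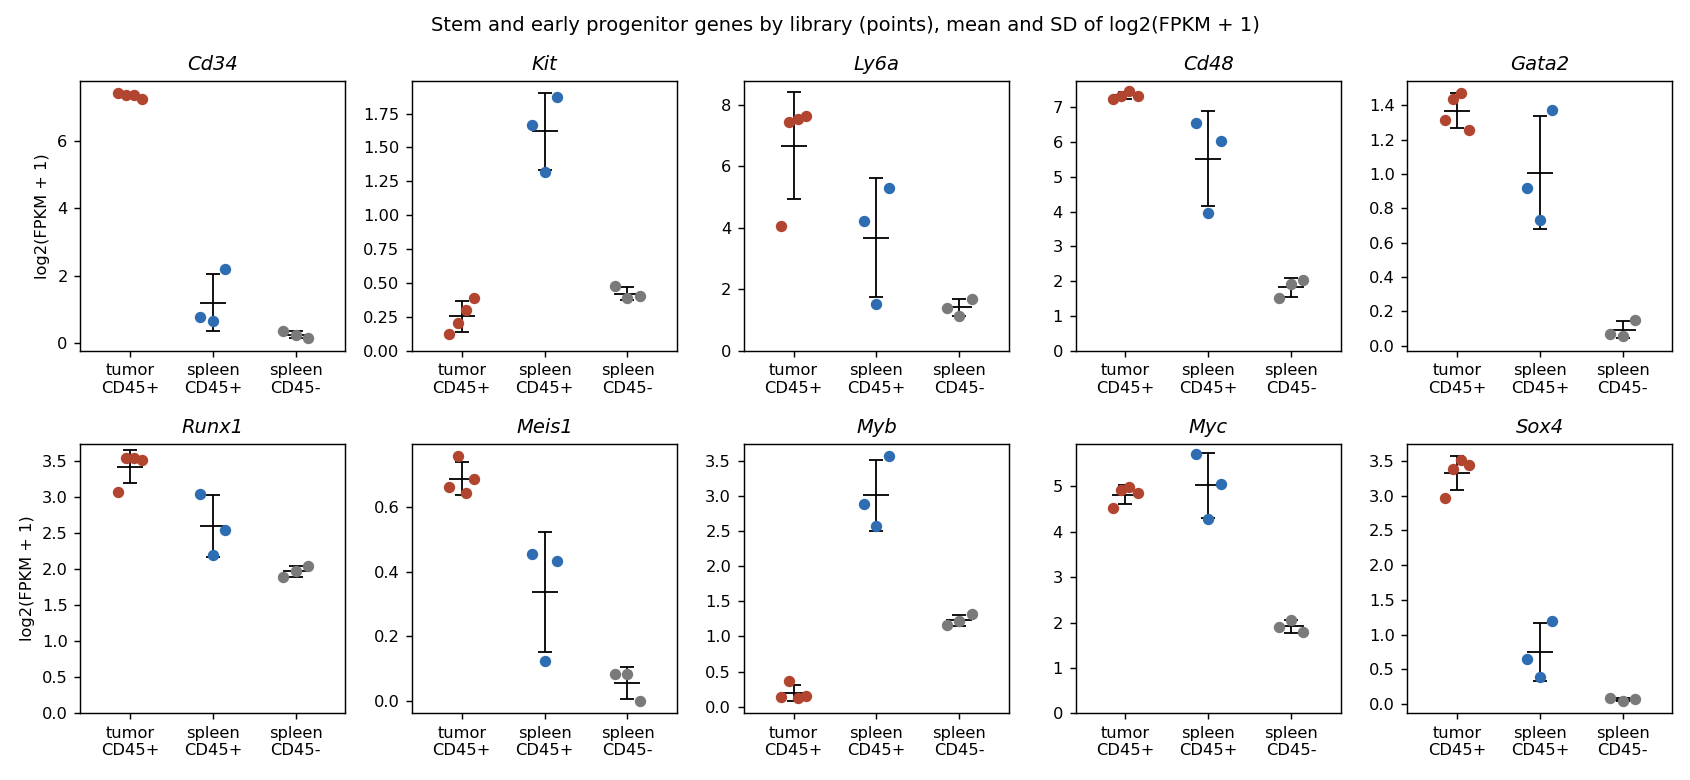
Level of each of the 10 genes on the vertical axis as log2(FPKM + 1), with 1 point per library, in tumor CD45+ (n = 4), splenic CD45+ (n = 3) and splenic CD45- cells (n = 3). Long bars are means and whiskers are SD. Cd34 and Sox4 are highest in every tumor library, while Kit and Myb are highest in every splenic CD45+ library.

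The 10 genes did not move as a block. In CD45+ cells of the tumor, Cd34, Cd48, Ly6a, Runx1 and Sox4 were higher than in splenic CD45+ cells, Ly6a with overlapping groups, and Kit and Myb were lower. Without the globin genes the calls of Cd48, Ly6a and Runx1 were lost, and those of Cd34, Sox4, Kit and Myb were kept. Within the spleen, Cd48, Kit, Myb and Myc were higher in CD45+ than in CD45- cells. The order of mean levels from high to low was tumor CD45+, splenic CD45+, splenic CD45- for 7 genes (Cd34, Ly6a, Cd48, Gata2, Runx1, Meis1 and Sox4). For Kit and Myb it was splenic CD45+, splenic CD45-, tumor CD45+, and for Myc it was splenic CD45+, tumor CD45+, splenic CD45-. The 3 comparisons share libraries, so their values are set side by side and are not independent of each other.

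Tests were run on log2(FPKM + 1) with limma across all genes that reached 1 FPKM in at least 3 of the libraries compared, and a gene was called at a Benjamini-Hochberg adjusted p below 0.05. Of the 9 members tested between tumor CD45+ and splenic CD45+ cells, 5 were called higher and 2 lower, where 37.7% of all 11463 tested genes were called higher and 26.0% lower. The libraries of the 2 groups did not overlap for 6 of the 9 (66.5% of all tested genes). The median log2 change of the members was 0.83, beside 0.20 over all tested genes. Of the 6 members tested between splenic CD45+ and splenic CD45- cells, 4 were called higher and 0 lower, where 50.5% of 9728 tested genes were called higher and 5.02% lower. Groups did not overlap for 5 of the 6 (66.2% of all tested genes). The median log2 change of the members was 2.02, beside 0.67 over all tested genes. Tumor CD45+ and splenic CD45- cells differ in tissue and in gate, whose parts cannot be told apart. In that comparison 7 of 8 tested members were called higher and 1 lower, where 67.5% of 11208 tested genes were called higher and 22.5% lower, with no overlap for 8 of the 8 (88.8% of all) and medians of 3.08 for the members and 1.06 for all genes. With so few members, these shares are not set against the background any further. Members below 1 FPKM in every library of a group, which could be called in 1 direction only, numbered 2, 1 and 4 of those tested, in the order of comparisons above.

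Globin genes held 1.80% to 10.4% of the summed FPKM in tumor libraries, 29.4% to 52.2% in splenic CD45+ and 62.5% to 63.5% in splenic CD45- libraries, and the scale of the values moved the calls. Genes called higher made up 91.0% of all calls between splenic CD45+ and splenic CD45- cells as deposited, and 49.99% after trimmed-mean scaling, a scaling that sets the bulk of genes equal. That scaling moved the median of all genes to -0.17. For tumor CD45+ against splenic CD45+ cells the share of higher calls was 59.2% as deposited, 53.0% after trimmed-mean scaling, 70.6% after scaling to a common sum and 40.6% after the globin genes were taken out and the rest scaled to a common sum. For tumor CD45+ against splenic CD45- cells these shares were 74.99%, 49.8%, 84.6% and 60.6%. In that comparison trimmed-mean scaling set the members' log2 changes at 6.44 for Cd34, 4.24 for Ly6a, 4.42 for Cd48, 2.73 for Sox4, 0.91 for Gata2, 1.82 for Myc, 0.39 for Runx1 and -1.55 for Myb, all still called. A pseudocount of 0.1 in place of 1 enlarged the changes of genes with low values, to -2.93 for Kit, -4.91 for Myb, 3.64 for Sox4 and 7.04 for Cd34 between tumor CD45+ and splenic CD45+ cells.

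**Figure D2:**
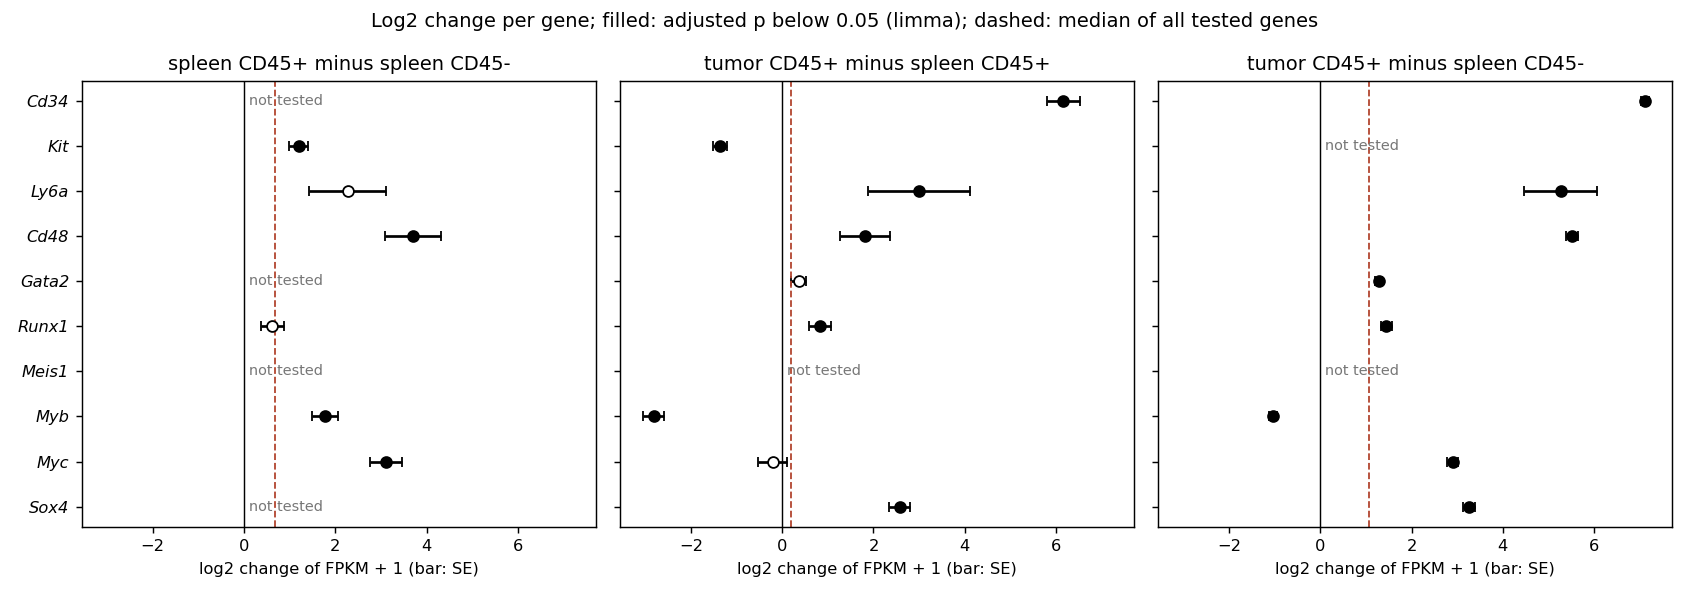
Log2 change of FPKM + 1 on the horizontal axis for each member in the 3 comparisons, with SE as bars. Filled points have a limma adjusted p below 0.05, dashed lines are the medians of all tested genes (0.67, 0.20 and 1.06), and members under the filter are marked as not tested.

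Of the 4 surface proteins, Cd34, a sialomucin of stem cells, early progenitors and vascular endothelium, differed most between tumor and spleen. It lies on chromosome 1 at 194938821-194961292 of GRCm38.p6. Tumor libraries 1 to 4 had 171.54, 165.00, 164.41 and 151.45 FPKM of Cd34, splenic CD45+ libraries 1 to 3 had 0.70, 0.56 and 3.53 FPKM, and splenic CD45- libraries had 0.28, 0.18 and 0.09 FPKM. All 4 tumor libraries were far above every splenic library, and among the splenic CD45+ libraries replicate 3 was the high one. The tumor mean of 163.1 ± 8.41 FPKM (SD, n = 4) was 102-fold that of splenic CD45+ cells, 1.60 ± 1.68 FPKM (SD, n = 3), and 259-fold without splenic CD45+ replicate 3, when the splenic mean was 0.63 FPKM. The log2 change was 6.16 (SE 0.36, limma adjusted p = 4.87e-06). Against splenic CD45- cells, whose values rest on about 5 to 13 fragments each, the log2 change in tumor CD45+ cells was 7.12 (SE 0.08, limma adjusted p = 4.54e-11). The splenic groups did not overlap either, but Cd34 missed the filter there and was not tested. Cd34 is known to yield a full-length and a shortened protein, and of its models NM_133654 held 65.9% ± 3.68 of the gene's FPKM in the tumor and 62.1% ± 12.4 in splenic CD45+ cells (SD, n = 4 and 3), against NM_001111059 with 34.1% ± 3.68 and 37.9% ± 12.4.

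Kit, the receptor for stem cell factor, ran the other way. It lies on chromosome 5 at 75574987-75656722. Kit had 0.09, 0.15, 0.23 and 0.31 FPKM in tumor libraries, 2.17, 1.49 and 2.67 FPKM in splenic CD45+ libraries and 0.39, 0.31 and 0.32 FPKM in splenic CD45- libraries. Every splenic CD45+ library was above all others, and the tumor and splenic CD45- groups overlapped at about 9 to 30 and 29 to 37 fragments per library. Kit was lower in tumor CD45+ than in splenic CD45+ cells by a log2 change of -1.37 (SE 0.15, limma adjusted p = 1.50e-04), and higher in splenic CD45+ than in splenic CD45- cells by 1.20 (SE 0.21, limma adjusted p = 0.00309), where after trimmed-mean scaling the change was 0.76. Kit stayed below 1 FPKM in every tumor and splenic CD45- library, and these groups were not tested against each other. The model NM_001122733 held 32.4% ± 13.96 of the Kit FPKM in splenic CD45+ cells (SD, n = 3) and was listed at 0 in every tumor and splenic CD45- library, where NM_021099 held all of it.

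Kit is also a defining receptor of mast cells, and the summed level of 9 mast cell and basophil markers (Cpa3, Ms4a2, Fcer1a, Mcpt8, Prss34, Hdc, Mcpt4, Cma1 and Tpsb2) was, like Kit, highest in splenic CD45+ cells, but the other groups stood in the opposite order. That sum was 5.49 to 8.51 FPKM in tumor libraries, 101.24, 43.74 and 175.11 FPKM in splenic CD45+ libraries 1 to 3 and 1.06 to 2.05 FPKM in splenic CD45- libraries. Much of it in splenic CD45+ libraries 1 to 3 came from Mcpt8 (37.48, 12.91 and 60.69 FPKM) and Prss34 (35.74, 16.01 and 60.61 FPKM). Splenic CD45+ replicate 3 was highest and replicate 2 lowest in both the sum and Kit. Of the markers, 5 of 5 tested were called higher in splenic CD45+ than in splenic CD45- cells (50.5% of all tested genes), but 4 of these 5 were below 1 FPKM throughout the CD45- group and could be called in that direction only. Of 6 tested between tumor CD45+ and splenic CD45+ cells, 1 was called higher and 5 lower (37.7% and 26.0% of all tested genes), and 5 of the 6 were below 1 FPKM throughout 1 of the groups. Tpsb2 was the higher one, at 1.29 ± 0.38 FPKM in the tumor (SD, n = 4), against 0.00, 0.00 and 0.11 FPKM in splenic CD45+ libraries. Mcpt4, which missed the filter, was also above Kit's direction in the tumor: it had 0.85 to 2.04 FPKM there, against 0.00, 0.00 and 0.63 FPKM in splenic CD45+ libraries. Both markers tested between tumor CD45+ and splenic CD45- cells, Hdc and Tpsb2, were called higher in the tumor, as were 67.5% of all tested genes. Hdc had 1.49 ± 0.54 FPKM in the tumor (SD, n = 4) and 0.20 ± 0.08 FPKM in splenic CD45- cells (SD, n = 3). The lower ones in the tumor than in splenic CD45+ cells included Mcpt8, a basophil protease, at 0.65 ± 0.23 FPKM in the tumor (SD, n = 4) and 37.0 ± 23.9 FPKM in splenic CD45+ cells (SD, n = 3). Of the 9, 6 were below 1 FPKM in every tumor library, and Mcpt4 and Tpsb2, proteases of connective tissue mast cells, were listed at 0 in every splenic CD45- library. The part of such cells in the level of Kit was not tested. In these bulk samples, fewer cells of a type and less RNA per cell cannot be told apart.

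Ly6a encodes Sca-1, a surface antigen of mouse stem cells that interferon induces in many other cells. It lies on chromosome 15 at 74994877-74998031. Ly6a had 15.71, 173.17, 186.51 and 197.96 FPKM in tumor libraries 1 to 4, 17.78, 1.86 and 38.00 FPKM in splenic CD45+ libraries 1 to 3 and 1.62, 1.21 and 2.24 FPKM in splenic CD45- libraries. Tumor replicate 1 was below 2 of the 3 splenic CD45+ libraries, so these groups overlapped, and splenic CD45+ replicate 2 lay within the splenic CD45- range. The log2 change of tumor CD45+ against splenic CD45+ cells was 3.00 (SE 1.13, limma adjusted p = 0.0470). That call depended on which libraries entered: without tumor replicate 1 the change was 3.87 (limma adjusted p = 0.0121), without splenic CD45+ replicate 3 it was 3.80 and still called, and without both tumor replicate 1 and splenic CD45+ replicate 2 it was 2.79 (limma adjusted p = 3.90e-04). The call was lost without any 1 of splenic CD45+ replicate 1 (3.27), splenic CD45+ replicate 2 (1.92) and tumor replicates 2, 3 and 4 (2.74, 2.70 and 2.68), with limma adjusted p-values of 0.0691 to 0.122. It was also lost after trimmed-mean scaling (2.85, limma adjusted p = 0.0525). Against splenic CD45- cells Ly6a was higher in the tumor by 5.26 (SE 0.81, limma adjusted p = 2.01e-04), and by 6.13 without tumor replicate 1. Between splenic CD45+ and splenic CD45- cells the change of 2.27 (SE 0.85, limma adjusted p = 0.0543) was not called, but without splenic CD45+ replicate 2 it was 3.35 (limma adjusted p = 7.99e-06), and without splenic CD45+ replicate 3 it was 1.46.

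The Ly6 family encodes small membrane-anchored proteins, many of them of white blood cells. Of 8 others listed, 7 were in the tables and 5 were tested: 0 were called higher and 3 lower in tumor CD45+ than in splenic CD45+ cells, and 5 of 5 were called higher in splenic CD45+ than in splenic CD45- cells. Over all tested genes 37.7% were called higher and 26.0% lower in the first comparison, and 50.5% and 5.02% in the second. Ly6e, a family member found in many tissues, had 113.78, 301.44, 319.11 and 279.38 FPKM in tumor libraries 1 to 4, 157.44, 101.93 and 109.65 FPKM in splenic CD45+ libraries and 43.89 to 44.45 FPKM in splenic CD45- libraries. As with Ly6a, tumor replicate 1 was the low one and lay within the splenic CD45+ range while the other 3 were above it; the log2 change of tumor CD45+ against splenic CD45+ cells was 0.96 (SE 0.38, limma adjusted p = 0.0549) and against splenic CD45- cells 2.39 (SE 0.33, limma adjusted p = 9.10e-05). Ly6g, a neutrophil antigen, had 0.96 ± 1.91 FPKM in the tumor (SD, n = 4) and 139 ± 119 FPKM in splenic CD45+ cells (SD, n = 3), a log2 change of -6.25 (limma adjusted p = 1.70e-04). Ly6d, an antigen of B-lineage cells, had 0.19 ± 0.22 FPKM in the tumor and 61.5 ± 48.6 FPKM in splenic CD45+ cells (log2 change -4.99, limma adjusted p = 0.00162). Ly6c1 and Ly6c2 are near-identical, so the split of reads between them is uncertain. Ly6c2 had 189 ± 136 FPKM in splenic CD45+ and 4.58 ± 0.47 FPKM in splenic CD45- cells (SD, n = 3 each).

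Cd48, a SLAM family protein that is absent from the most primitive mouse stem cells and present on most later blood cells, lies on chromosome 1 at 171681245-171705258. Cd48 had 148.46, 160.39, 174.51 and 160.26 FPKM in tumor libraries, 92.20, 14.63 and 64.68 FPKM in splenic CD45+ libraries 1 to 3 and 1.87, 2.78 and 3.09 FPKM in splenic CD45- libraries. The 3 groups did not overlap, and splenic CD45+ replicate 2 was the low one of its group. The log2 change of tumor CD45+ against splenic CD45+ cells was 1.82 (SE 0.55, limma adjusted p = 0.0193). Without splenic CD45+ replicate 2 it was 1.05 (limma adjusted p = 5.70e-04), and without the globin genes it was 1.36 and no longer called (limma adjusted p = 0.0724). Between splenic CD45+ and splenic CD45- cells the change was 3.69 (SE 0.61, limma adjusted p = 0.00264), 4.47 without splenic CD45+ replicate 2 and 2.88 after trimmed-mean scaling. Between tumor CD45+ and splenic CD45- cells it was 5.51 (SE 0.13, limma adjusted p = 4.85e-10).

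Slamf1, whose presence together with the absence of CD48 marks the most primitive mouse stem cells, had 0.04 to 0.15 FPKM in tumor libraries, 8.66, 0.73 and 4.69 FPKM in splenic CD45+ libraries 1 to 3, and 0.00 to 0.11 FPKM in splenic CD45- libraries. It was thus low in the tumor, where Cd48 was high. Of 9 receptors of this family other than CD48, Slamf1 and Cd2 among them, 8 were tested between tumor CD45+ and splenic CD45+ cells, with 3 called higher and 2 lower. These counts are near the shares over all tested genes, 37.7% higher and 26.0% lower. Slamf9 had 236 ± 72.1 FPKM in the tumor (SD, n = 4) and 3.47 ± 2.80 FPKM in splenic CD45+ cells (SD, n = 3), a log2 change of 6.01 (limma adjusted p = 5.91e-05). Cd2, a T and NK cell receptor that binds CD48 in the mouse, had 1.99 ± 0.36 FPKM in the tumor and 44.6 ± 31.3 FPKM in splenic CD45+ cells (log2 change -3.51, limma adjusted p = 0.00187). Between splenic CD45+ and splenic CD45- cells 5 of 5 tested were called higher (50.5% of all tested genes), 4 of which were below 1 FPKM throughout the CD45- group and could be called in that direction only. They included Cd84 at 29.4 ± 18.4 and 0.68 ± 0.10 FPKM and Slamf6 at 29.0 ± 20.7 and 0.61 ± 0.32 FPKM (SD, n = 3 each).

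Among the transcription factors, Sox4, an HMG-box factor of progenitors and of many tumors, lies on chromosome 13 at 28948919-28953699 and has 1 model. Sox4 had 6.78, 9.44, 10.37 and 9.83 FPKM in tumor libraries, 0.57, 0.31 and 1.30 FPKM in splenic CD45+ libraries and 0.06, 0.03 and 0.05 FPKM in splenic CD45- libraries. The 3 groups did not overlap. The tumor mean of 9.11 ± 1.60 FPKM (SD, n = 4) was 12.5-fold that of splenic CD45+ cells, 0.73 ± 0.51 FPKM (SD, n = 3), and 20.7-fold without splenic CD45+ replicate 3, with a log2 change over all libraries of 2.57 (SE 0.23, limma adjusted p = 4.78e-05). Against splenic CD45- cells, at about 3 to 5 fragments per library, the log2 change was 3.26 (SE 0.13, limma adjusted p = 1.53e-08).

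Cd34 and Sox4 are also expressed outside blood, and the tumor libraries held some transcripts that serve as markers of such cells. The 8 fibroblast and stroma markers (Col1a1, Col1a2, Col3a1, Pdgfra, Pdgfrb, Dcn, Lum and Fap) summed to 143 to 199 FPKM in tumor libraries, 0.34 to 0.92 FPKM in splenic CD45+ and 0.26 to 2.28 FPKM in splenic CD45- libraries. The 8 epithelial and carcinoma markers (Epcam, Krt5, Krt14, Krt8, Krt18, Cdh1, Trp63 and Krt6a) summed to 312 to 406 FPKM in tumor libraries, 0.39 to 2.84 FPKM in splenic CD45+ and 0.03 to 0.86 FPKM in splenic CD45- libraries. Of these 8, 5 were below 1 FPKM in every tumor library, and Krt5, Krt14 and Krt6a were listed at 0 in every splenic CD45+ library. Krt8 and Krt18 averaged 219 ± 13.7 and 117 ± 31.8 FPKM in the tumor (SD, n = 4) and made up nearly all of that sum. Krt5, Krt14, Trp63 and Krt6a stayed at or below 0.13 FPKM in every tumor library. Epcam ran the other way, at 0.02 to 0.04 FPKM in tumor and 1.18, 0.14 and 2.08 FPKM in splenic CD45+ libraries. The 8 endothelial markers (Cdh5, Kdr, Pecam1, Tie1, Emcn, Egfl7, Vwf and Cldn5) summed to 9.31 to 11.99 FPKM in tumor libraries, 10.4 to 41.4 FPKM in splenic CD45+ and 2.87 to 3.36 FPKM in splenic CD45- libraries, and Cldn5 was listed at 0 in every splenic library. Single endothelial markers went both ways between tumor CD45+ and splenic CD45+ cells. Of 4 tested, 2 were called higher and 1 lower (37.7% and 26.0% of all tested genes), 2 being below 1 FPKM throughout 1 group. Kdr (3.32 ± 0.59 and 0.16 ± 0.15 FPKM) and Cdh5 (2.33 ± 0.40 and 0.17 ± 0.11 FPKM) were the higher ones (SD, n = 4 and 3). Pecam1 had 1.27 to 2.35 FPKM in tumor libraries and 36.47, 3.21 and 18.47 FPKM in splenic CD45+ libraries. The 9 monocyte and macrophage markers (Csf1r, Adgre1, Lyz2, Cd68, Itgam, Ccr2, Mrc1, C1qa and C1qb) summed to 20434 to 40133 FPKM in tumor libraries, 1376 to 3893 FPKM in splenic CD45+ and 50.7 to 97.5 FPKM in splenic CD45- libraries. The part of these cells in the levels of Cd34, Sox4 and Cd48 was not tested.

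Myb, a factor that immature cells of all blood lineages need and lose on maturation, was the member with the largest fall in the tumor. It lies on chromosome 10 at 21124930-21160984. Myb had 0.10, 0.29, 0.09 and 0.11 FPKM in tumor libraries, 6.38, 4.95 and 10.85 FPKM in splenic CD45+ libraries and 1.24, 1.32 and 1.49 FPKM in splenic CD45- libraries. The 3 groups did not overlap, and the tumor values rest on about 5 to 19 fragments each. Myb was lower in tumor CD45+ than in splenic CD45+ cells by a log2 change of -2.81 (SE 0.23, limma adjusted p = 2.87e-05) and lower than in splenic CD45- cells by -1.04 (SE 0.08, limma adjusted p = 1.73e-06). It was higher in splenic CD45+ than in splenic CD45- cells by 1.78 (SE 0.28, limma adjusted p = 0.00226), and by 1.09 after trimmed-mean scaling. The model NM_010848 held 87.0% ± 2.62 of the Myb FPKM in splenic CD45+ and 83.2% ± 8.17 in splenic CD45- cells (SD, n = 3 each), and NM_001198914 held the rest.

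Myc, which drives growth and division in progenitors and in many other cells, set the CD45+ cells of both tissues apart from the splenic CD45- cells. It lies on chromosome 15 at 61985341-61990361. Myc had 22.00, 29.04, 30.42 and 27.94 FPKM in tumor libraries, 51.54, 18.46 and 32.24 FPKM in splenic CD45+ libraries 1 to 3 and 2.72, 3.18 and 2.44 FPKM in splenic CD45- libraries. Tumor and splenic CD45+ libraries overlapped, and both groups were above every splenic CD45- library. The log2 change was 3.10 between splenic CD45+ and splenic CD45- cells (SE 0.36, limma adjusted p = 0.00104) and 2.90 between tumor CD45+ and splenic CD45- cells (SE 0.12, limma adjusted p = 2.44e-08), with 2.29 and 1.82 after trimmed-mean scaling. Between tumor CD45+ and splenic CD45+ cells it was -0.20 (SE 0.32, limma adjusted p = 0.599) and its direction hung on single libraries: it was 0.15 without splenic CD45+ replicate 1 (limma adjusted p = 0.635) and -0.57, then called, without splenic CD45+ replicate 2 (limma adjusted p = 0.0388). The model pairs NM_001177352 with NM_010849 and NM_001177353 with NM_001177354 had identical values in 10 of 10 libraries, so the tables do not tell the members of a pair apart.

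The gene groups around Myc differed between the comparisons. Of 19 genes known as Myc targets, which serve ribosome making, nucleotide and polyamine synthesis, glycolysis and cell division, 16 were called higher and 0 lower in splenic CD45+ than in splenic CD45- cells, and 7 higher and 1 lower in tumor CD45+ than in splenic CD45+ cells. Over all tested genes 50.5% were called higher and 5.02% lower in the first comparison and 37.7% and 26.0% in the second. Their median log2 changes were 1.47 and 0.26, beside 0.67 and 0.20 over all tested genes. Ldha, a glycolytic enzyme, had 1193 ± 188 FPKM in the tumor (SD, n = 4), 151 ± 6.05 FPKM in splenic CD45+ and 29.1 ± 5.55 FPKM in splenic CD45- cells (SD, n = 3 each). Of the 8 partners and antagonists of MYC, 0 were called higher and 4 lower in tumor CD45+ than in splenic CD45+ cells, with a median of -0.47. They included the antagonists Mxd1 (13.8 ± 4.05 FPKM in the tumor, 78.9 ± 22.0 FPKM in splenic CD45+ cells) and Mxd3 (9.25 ± 1.73 and 39.9 ± 7.23 FPKM), the log2 change of Mxd1 being -2.45 (limma adjusted p = 2.85e-04). Within the spleen 5 of these 8 were called higher and 2 lower in CD45+ than in CD45- cells, Mxd3 being lower by a log2 change of -1.55 (limma adjusted p = 0.00140).

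Gata2, a zinc-finger factor of stem cells that GATA1 replaces during red cell formation and that mast cells keep, lies on chromosome 6 at 88193891-88207032. Gata2 had 1.49, 1.71, 1.77 and 1.39 FPKM in tumor libraries, 0.89, 0.66 and 1.59 FPKM in splenic CD45+ libraries 1 to 3 and 0.05, 0.04 and 0.11 FPKM in splenic CD45- libraries. Splenic CD45+ replicate 3 reached the tumor range and the other 2 did not, while all splenic CD45- libraries, at about 2 to 7 fragments, were below both groups. The log2 change of tumor CD45+ against splenic CD45+ cells was 0.36 (SE 0.17, limma adjusted p = 0.0909) and was called without splenic CD45+ replicate 3 (0.55, limma adjusted p = 0.0120). Without splenic CD45+ replicate 2 it was 0.22 and not called (limma adjusted p = 0.210). Against splenic CD45- cells it was 1.28 (SE 0.07, limma adjusted p = 2.15e-07). The splenic comparison was not tested for Gata2, which missed the filter.

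Runx1, a factor required for the first stem cells of the embryo and active in adult myeloid, lymphoid and megakaryocytic cells, lies on chromosome 16 at 92601466-92826074. Runx1 had 7.44, 10.71, 10.69 and 10.48 FPKM in tumor libraries 1 to 4, 7.28, 3.58 and 4.85 FPKM in splenic CD45+ libraries 1 to 3 and 2.72, 2.95 and 3.14 FPKM in splenic CD45- libraries. The groups did not overlap, although tumor replicate 1 and splenic CD45+ replicate 1 nearly met. The log2 change was 0.83 between tumor CD45+ and splenic CD45+ cells (SE 0.24, limma adjusted p = 0.0156), but 0.42 and not called without the globin genes (limma adjusted p = 0.214). Without splenic CD45+ replicate 2 this change was 0.62 and still called (limma adjusted p = 0.0230). Between splenic CD45+ and splenic CD45- cells it was 0.62 (SE 0.26, limma adjusted p = 0.0736), turned to -0.13 after trimmed-mean scaling, and was called without splenic CD45+ replicate 2 (0.82, limma adjusted p = 0.00432). Between tumor CD45+ and splenic CD45- cells it was 1.45 (SE 0.13, limma adjusted p = 4.11e-06), and 0.39 and still called after trimmed-mean scaling. Cbfb, which encodes the partner that RUNX proteins need to bind DNA well, had 72.33 to 82.30 FPKM in tumor libraries, 34.57, 8.19 and 31.76 FPKM in splenic CD45+ libraries and 0.56 to 0.87 FPKM in splenic CD45- libraries.

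The total of Runx1 hid a larger difference in its start sites, which lie 128745 bases apart. Models NM_001111021 and NM_001111022 begin at the distal start and NM_001111023 and NM_009821 at the proximal start, the stretches before which are printed above. The GENCODE start of NM_001111023 lies 1204 bases from its RefSeq start. The proximal models had 6.55, 9.33, 8.59 and 9.08 FPKM in tumor libraries, 2.02, 0.65 and 0.89 FPKM in splenic CD45+ libraries and 0.15, 0.30 and 0.15 FPKM in splenic CD45- libraries. The distal models had 0.89, 1.38, 2.10 and 1.40 FPKM in tumor libraries, 5.26, 2.93 and 3.96 FPKM in splenic CD45+ libraries and 2.57, 2.65 and 2.99 FPKM in splenic CD45- libraries. Thus the proximal level was highest and the distal level lowest in the tumor, with no overlap between tumor and splenic libraries in either. The proximal share of the gene's FPKM was 85.5% ± 3.503 in tumor CD45+ cells (SD, n = 4), 21.4% ± 5.48 in splenic CD45+ and 6.82% ± 2.92 in splenic CD45- cells (SD, n = 3 each). The shares of the 3 groups did not overlap. The most abundant model, by its mean over all libraries, was the proximal NM_001111023, which was not the main model in either splenic group. It held on average 56.6% of the Runx1 FPKM in tumor CD45+, 7.70% in splenic CD45+ and 1.84% in splenic CD45- cells. When that model alone stood for the gene, the log2 change of Runx1 was 2.21 between tumor CD45+ and splenic CD45+ cells. Between tumor CD45+ and splenic CD45- cells it was 2.63, both called. These changes restate the start-site levels and are no separate support. Exact two-sided permutation tests over libraries gave p = 0.0571 for tumor CD45+ against splenic CD45+ and against splenic CD45- cells, and p = 0.1 for splenic CD45+ against splenic CD45- cells, in each case the smallest p these group sizes allow. Adjusted over the 6 tests on Runx1 and Gata2 shares, these were 0.114, 0.114 and 0.15.

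Gata2 has start sites 4773 bases apart, the distal one of model NM_001355253 and the proximal one of NM_008090. In the tumor 100% of the Gata2 FPKM was assigned to the proximal model in every library. In splenic CD45+ libraries 1 to 3 the proximal share was 0%, 51.5% and 100%, so that these replicates disagreed. In the splenic CD45- libraries it was 0% throughout, at a total of 0.04 to 0.11 FPKM. The exact two-sided permutation p was 0.286 for tumor CD45+ against splenic CD45+ cells, 0.0571 against splenic CD45- cells and 0.4 for splenic CD45+ against splenic CD45- cells (0.343, 0.114 and 0.4 when adjusted over the 6 tests). Values of models are estimates made from reads in exons that models share, by a program not given in the sources used here, and shares of 0% or 100% at such low levels rest on few fragments. The comparison of start sites was chosen after the model values were seen.

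**Figure D3:**
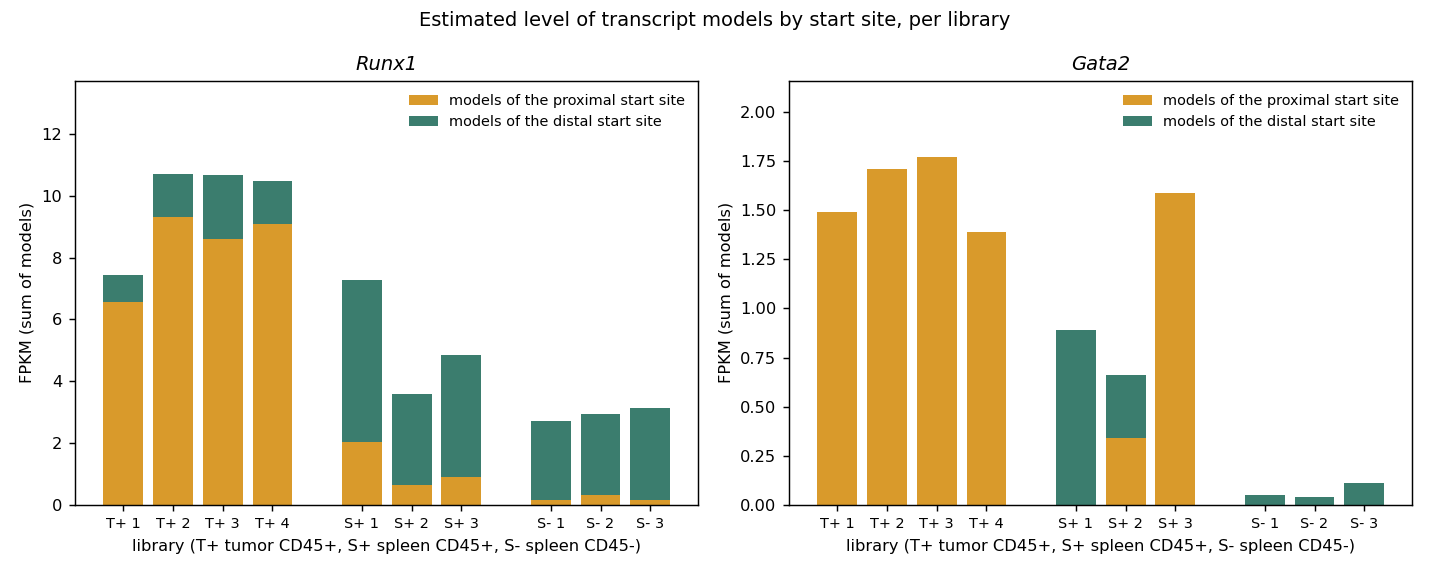
FPKM per library on the vertical axis, stacked as models of the proximal start site (orange) and of the distal start site (green), for Runx1 and Gata2 in tumor CD45+ (T+), splenic CD45+ (S+) and splenic CD45- (S-) libraries. Runx1 is mostly proximal in the 4 tumor libraries (80.4% to 88.0%) and mostly distal in all 6 splenic libraries.

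Meis1, a homeobox partner of HOX and PBX proteins in stem cells, lies on chromosome 11 at 18880428-19019651 and was near the lower limit throughout. Meis1 had 0.58, 0.69, 0.56 and 0.61 FPKM in tumor libraries, 0.37, 0.09 and 0.35 FPKM in splenic CD45+ libraries and 0.06, 0.06 and 0.00 FPKM in splenic CD45- libraries. The groups did not overlap in this order, but no library reached 1 FPKM and the gene was tested in no comparison. The tumor values rest on about 36 to 44 fragments, the splenic CD45+ values on about 6 to 21 and the splenic CD45- values on 0 to 4. Among HOX and PBX genes, Hoxa9 had 1.37 to 2.77 FPKM and Hoxa10 3.40 to 4.54 FPKM in tumor libraries, against 0.29 to 0.50 and 0.00 to 0.12 FPKM in splenic CD45+ and 0.08 to 0.13 and 0.02 to 0.07 FPKM in splenic CD45- libraries. Hoxb4 and Pbx3 overlapped between tumor and splenic CD45+ cells. Hoxb4 had 1.06 to 1.52 FPKM in tumor libraries, 1.39, 0.24 and 1.01 FPKM in splenic CD45+ libraries and 0.00 to 0.03 FPKM in splenic CD45- libraries. Pbx3 had 5.52 to 6.15 FPKM in tumor libraries, 6.58, 13.29 and 5.63 FPKM in splenic CD45+ libraries and 6 to 8.26 FPKM in splenic CD45- libraries, and splenic CD45+ replicate 2 was its highest library. Tested between tumor CD45+ and splenic CD45+ cells, the limma adjusted p was 6.45e-04 for Hoxa9 and 4.87e-06 for Hoxa10 (log2 changes 1.24 and 2.23), and 0.248 for Hoxb4 and 0.243 for Pbx3 (0.31 and -0.37).

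Other surface proteins of stem and early progenitor cells also moved in both directions, with more of them lower in the tumor. Of 14 listed, 11 were tested between tumor CD45+ and splenic CD45+ cells, with 4 called higher and 5 lower (37.7% and 26.0% of all tested genes) and a median log2 change of -1.43, where the members had 0.83 and all genes 0.20. Of the 11, 6 were below 1 FPKM throughout 1 of the groups and could be called in 1 direction only. Procr, the protein C receptor of primitive stem cells, was higher in the tumor (6.61 ± 0.94 FPKM, n = 4) than in splenic CD45+ cells (0.26 ± 0.16 FPKM, n = 3, both SD), with a log2 change of 2.59 (limma adjusted p = 6.06e-06). Prom1, the antigen CD133, was lower, at 0.02 ± 0.03 FPKM in the tumor and 4.73 ± 1.65 FPKM in splenic CD45+ cells (log2 change -2.46, limma adjusted p = 1.97e-05). Flt3, the cytokine receptor of multipotent and lymphoid progenitors, had 0.01 to 0.27 FPKM in tumor libraries, 6.62, 1.04 and 3.05 FPKM in splenic CD45+ libraries and 0.03 to 0.21 FPKM in splenic CD45- libraries. Within the spleen 7 of 10 tested were called higher and 0 lower in CD45+ than in CD45- cells (50.5% and 5.02% of all), 5 of the 10 having been below 1 FPKM throughout 1 group, with Cd9 at 49.3 ± 27.8 and 0.90 ± 0.25 FPKM and Cd44, the hyaluronan receptor, at 38.7 ± 10.7 and 4.94 ± 0.69 FPKM (SD, n = 3 each). Between tumor CD45+ and splenic CD45- cells 5 of 8 were called higher and 2 lower (67.5% and 22.5% of all), again with 5 below 1 FPKM throughout 1 group, Cd93 showing 71.3 ± 10.2 FPKM (SD, n = 4) and 0.08 ± 0.03 FPKM (SD, n = 3).

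**Figure D4:**
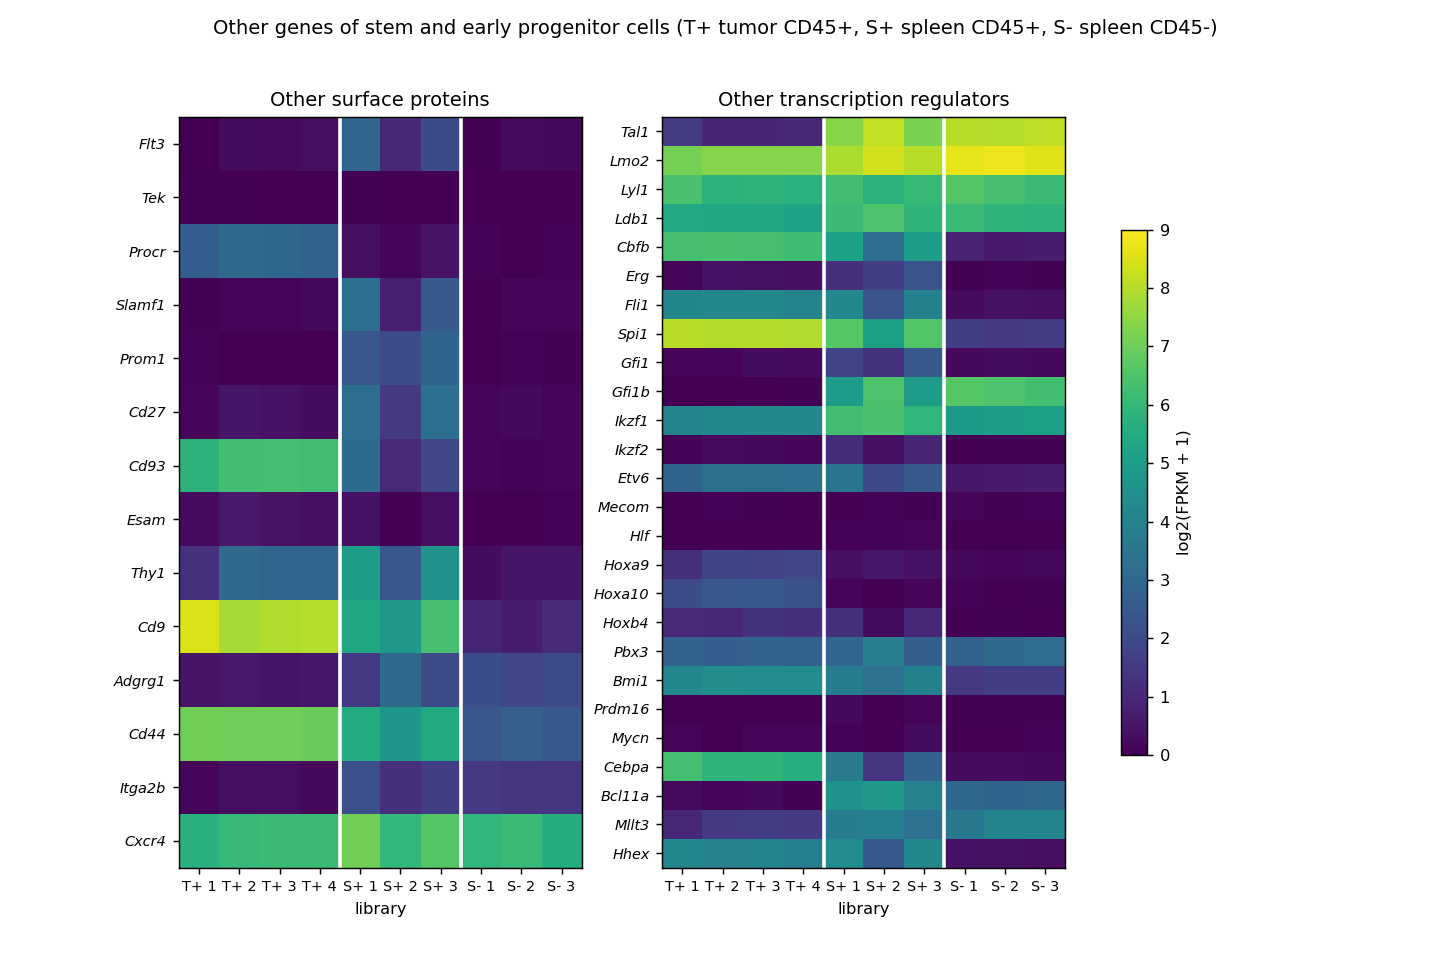
Level of 14 other surface proteins (left) and 26 other transcription regulators (right) of stem and early progenitor cells as colour, log2(FPKM + 1) from 0 (dark) to 9 (bright), by library in tumor CD45+ (T+), splenic CD45+ (S+) and splenic CD45- (S-) cells. Tal1 and Gfi1b are bright in all 6 splenic libraries and dark in the tumor, whereas Spi1 and Cebpa are brightest in the tumor.

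Among 26 other transcription regulators, 21 were tested between tumor CD45+ and splenic CD45+ cells, with 6 called higher and 9 lower (37.7% and 26.0% of all tested genes) and a median log2 change of -0.034. Of the 21, 6 were below 1 FPKM throughout 1 group. The 2 with the smallest p-values both fell: Tal1, which stem cells and erythroid cells need, had 1.25 ± 0.53 FPKM in the tumor (SD, n = 4) and 200 ± 77.6 FPKM in splenic CD45+ cells (SD, n = 3), a log2 change of -6.44 (limma adjusted p = 1.17e-06). Bcl11a, a regulator of lymphoid cells and of globin switching, had 0.13 ± 0.07 FPKM in the tumor and 22.1 ± 6.76 FPKM in splenic CD45+ cells (log2 change -4.31, limma adjusted p = 2.28e-06). Spi1, the myeloid regulator PU.1, had 252 ± 9.52 FPKM in the tumor (SD, n = 4), 75.1 ± 36.2 FPKM in splenic CD45+ and 2.00 ± 0.18 FPKM in splenic CD45- cells (SD, n = 3 each). Within the spleen 11 of 18 tested were called higher and 1 lower in CD45+ than in CD45- cells (50.5% and 5.02% of all), 7 of the 18 having been below 1 FPKM throughout 1 group, Bmi1, a Polycomb protein of self-renewing cells, having 12.2 ± 2.73 and 2.01 ± 0.16 FPKM (SD, n = 3 each). Between tumor CD45+ and splenic CD45- cells 10 of 19 were called higher and 8 lower, where 67.5% of all tested genes were called higher and 22.5% lower, and 10 of the 19 were below 1 FPKM throughout 1 group. Gfi1b, an erythroid and megakaryocytic repressor, had 0.02 ± 0.01 FPKM in the tumor (SD, n = 4) and 88.1 ± 11.2 FPKM in splenic CD45- cells (SD, n = 3). Mecom and Hlf, factors of the most primitive stem cells, stayed at or below 0.08 and 0.1 FPKM in all 10 libraries.

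Around Kit, the ligand gene Kitl was highest in the tumor, where its receptor was low: Kitl had 6.40 to 7.98 FPKM in tumor libraries, 2.01, 0.07 and 0.58 FPKM in splenic CD45+ libraries and 0.00 to 0.01 FPKM in splenic CD45- libraries. Of the 17 ligand and signalling genes, 3 were called higher and 5 lower in tumor CD45+ than in splenic CD45+ cells (37.7% and 26.0% of all tested genes). Jak2, a kinase below cytokine receptors, was lower, at 9.36 ± 1.76 FPKM in the tumor (SD, n = 4) and 32.9 ± 1.79 FPKM in splenic CD45+ cells (SD, n = 3), and so was Pik3r1, a subunit of phosphoinositide 3-kinase, at 5.46 ± 0.55 FPKM in the tumor and 22.2 ± 3.94 FPKM in splenic CD45+ cells. Within the spleen 10 of 15 tested were called higher and 1 lower in CD45+ than in CD45- cells, where 50.5% of all tested genes were called higher and 5.02% lower as deposited, a balance that moved with the scaling as given above. The kinase gene Lyn had 53.5 ± 39.2 FPKM in splenic CD45+ and 1.66 ± 0.10 FPKM in splenic CD45- cells (SD, n = 3 each).

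Genes of committed progenitors, the next stage after the cells these members mark, were mostly highest in splenic CD45+ cells. Of 12 listed, 7 were tested in each of the comparisons with splenic CD45+ cells. Of these 7, 2 were below 1 FPKM throughout 1 group in the splenic comparison and 1 in the comparison with the tumor. Between splenic CD45+ and splenic CD45- cells 6 were called higher and 0 lower (50.5% and 5.02% of all tested genes). Among them were the granule proteases of neutrophil and monocyte progenitors Prtn3 (81.2 ± 47.5 and 2.76 ± 0.49 FPKM) and Elane (101 ± 61.3 and 4.08 ± 0.38 FPKM, SD, n = 3 each). Between tumor CD45+ and splenic CD45- cells 3 of 6 tested were called higher and 3 lower (67.5% and 22.5% of all tested genes). Between tumor CD45+ and splenic CD45+ cells 1 was called higher and 5 lower (37.7% and 26.0% of all), with Elane at 0.50 ± 0.95 FPKM in the tumor (SD, n = 4). The higher one was Pf4, a chemokine gene of megakaryocytes that some macrophages also express, at 667 ± 128 FPKM in the tumor (SD, n = 4) and 1.15 ± 0.53 FPKM in splenic CD45+ cells (SD, n = 3). The 10 granulocyte markers (S100a8, S100a9, Ltf, Lcn2, Ngp, Camp, Retnlg, Csf3r, Cxcr2 and Mmp8) summed to 50.7 to 1751 FPKM in tumor libraries, 23023 to 77315 FPKM in splenic CD45+ and 383 to 519 FPKM in splenic CD45- libraries. The tumor library with 1751 FPKM was replicate 1, the 3 others lying between 50.7 and 58.6 FPKM.

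B cell and T and NK cell markers differed between the splenic CD45+ libraries. The 7 B cell markers (Cd79a, Cd79b, Ms4a1, Ebf1, Pax5, Bank1 and Cr2) summed to 1157, 129.7 and 1059.9 FPKM in splenic CD45+ libraries 1 to 3, and the 10 T and NK cell markers (Cd3d, Cd3e, Cd3g, Cd5, Cd8a, Lck, Gzma, Nkg7, Klrb1c and Il2rb) to 350, 58.4 and 283 FPKM. Replicate 2 was the low one in both, as it was for all 10 members. It was also the low one for the sums of monocyte and macrophage, mast cell and basophil, and endothelial markers. The granulocyte sum was instead lowest in replicate 1. Both lymphoid sums were highest in replicate 1, as were 4 of the members, while 6 members were highest in replicate 3. In tumor libraries these sums were 4.34 to 6.84 and 6.55 to 46.1 FPKM, and in splenic CD45- libraries 22.2 to 27.9 and 19.8 to 20.1 FPKM. The 9 erythroid markers (Klf1, Gata1, Epor, Tfrc, Ermap, Slc4a1, Alas2, Hemgn and Car2) summed to 63.9 to 248 FPKM in tumor libraries, 8248 to 9783 FPKM in splenic CD45+ libraries, with replicate 2 the highest, and 14015 to 15341 FPKM in splenic CD45- libraries. Their part in the members' levels was not tested.

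The genes whose profiles over the 10 libraries lay closest to each member were found by the mean absolute difference of centred log2(FPKM + 1) values, among 11541 genes. Ecm1 (0.26), Serpinf1 (0.27) and Ctla2b (0.29) were closest to Cd34, whose own mean deviation from its average was 3.19. Bdh1 (0.10), Tuba8 (0.13) and Pitpnm2 (0.13) were closest to Kit, Ehd3 (0.20), Susd1 (0.22) and Megf9 (0.26) to Myb, and Dync2li1, Rab13 and Rgs16 (0.14 each) to Sox4. Gadd45b, Rasgef1b and Ptgs2 were closest to Ly6a, but only within 0.54 to 0.57, so no gene tracked Ly6a as closely as others tracked the remaining members with a value. For Cd48 they were Bin1, Kctd12 and Snx20, for Gata2 Inpp5a, Txnrd3 and Rnf24, for Runx1 Acvr2a, Cplane1 and Myo6, and for Myc Fgd3, Btk and Gcnt2. No member was among the 3 closest genes of another. Meis1, below 1 FPKM in every library, was given none.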

How the data were processed

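Messenger RNA of 10 sorted mouse cell libraries (4 tumor CD45+, 3 splenic CD45+, 3 splenic CD45-) was sequenced, per the labels. Per the submitters' processing notes, reads were placed on GRCm38.p6. The sources used here give neither aligner nor quantifier. For each library the authors deposited 1 value for each of 61685 RefSeq models, read as FPKM because the values multiplied by transcript length summed to between 953307 and 1137767 per library over the 23223 models with a known length. Counts were not restored, so the count test that the design named for counts was not used.

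Models were mapped to 17603 genes through RefSeq (1518 models had no symbol) and summed. limma 3.58.1 (R 4.3.3, trended prior variance, no covariate) was run on log2(FPKM + 1) for genes reaching 1 FPKM in 3 or more of the compared libraries, with Benjamini-Hochberg adjustment over all genes. The logarithm understates changes of low genes. The code was tested on simulated data. Members are all named, and each other list is given by counts and mostly by its 2 genes with the smallest adjusted p per comparison. Profiles were compared by mean absolute difference, and models holding 10 percent or more of a gene are named for Cd34, Kit, Gata2, Runx1, Myb and Myc. Genes outside that rule (Slamf1, Cbfb, Hoxa9, Hoxa10, Hoxb4, Pbx3, Ly6e, Flt3, Mecom, Hlf, Kitl, Mcpt4, Epcam, and Spi1 and Mcpt8 in some comparisons) were chosen after their values were seen. Members and lists were chosen with earlier results of these data known, and a few genes of the lists are not reported here. Alternatives covered the pseudocount, filter, scaling, model choice, fit and replicates; leaving libraries out of the Cd34 and Sox4 ratios and the start-site shares was added after seeing the data. Promoter sequences came from RefSeq tables of GRCm38.p6, figures from Python 3.11.15 with matplotlib 3.10.9.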

Additional observations from a re-analysis of the deposited data

Results flagged for a closer look

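In 3 of the 10 members, 1 of the 4 tumor libraries lay far from the others, by a gap that was a large part of the group's whole range. The same gap was found for 16.0% of 11522 expressed genes in these 4 libraries, and chance alone flags about 1 in 20 groups. Ly6a was lowest in tumor replicate 1, at 15.71 FPKM, with 173.17 to 197.96 FPKM in the other 3, a gap of 0.864 of the range. Runx1 was lowest in the same library, at 7.44 FPKM, with 10.48 to 10.71 FPKM in the others (0.930 of the range). Myb was highest in tumor replicate 2, at 0.29 FPKM, with 0.09 to 0.11 FPKM in the others (0.900 of the range), all on few fragments. Tumor replicate 1 also had the highest globin share (10.4%), the highest granulocyte marker sum (1751 FPKM) and the lowest T and NK cell marker sum (6.55 FPKM) of its group. Their part in these values was not tested.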

How the results depend on the processing

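Each count of called members and each member's change was recomputed under the other settings, which gave 427 values that kept their direction and side of the threshold (counts: within 1.5 times), 12 that gained and 13 that lost a call, 3 with the sign turned and 2 counts moved by over 1.5 times. With a filter at 5 FPKM, 2 members (both of those tested) were called between splenic CD45+ and splenic CD45- cells in place of 4, and 3121 genes in place of 5400. Without globin genes, 4 members were called between tumor CD45+ and splenic CD45+ cells in place of 7. Signs turned for Runx1 between the splenic groups after trimmed-mean scaling (-0.13) and for Myc between tumor CD45+ and splenic CD45+ cells after scaling to a common sum (0.053) and without splenic CD45+ replicate 1 (0.15), none of them called; without splenic CD45+ replicate 2 the Myc change was -0.57 and called. The cause was not tested.

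It was not settled whether same-numbered libraries are paired. Their deviations from the group means correlated at -0.175 to 0.235, which with so few libraries cannot decide it. With the replicate number as a block, 5 members were called between tumor CD45+ and splenic CD45+ cells (Ly6a and Runx1 losing their calls), 5 between splenic CD45+ and splenic CD45- cells and 8 between tumor CD45+ and splenic CD45- cells. With each replicate left out, these counts were 6 to 8, 4 to 6 and 8. Values below 1 FPKM rest on few fragments, so depth limits what differences at that level can show.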
